A study of Mus musculus with 6 samples.

Results

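The genes described here are 52 interferon-stimulated genes, taken by their symbols from the 54446 genes that the deposited tables list. RNA-seq was carried out on the whole liver of 3 wild-type (WT) and 3 Fmo5-/- mice, with 1 library per mouse. The 6 mice were male, 32 weeks old and on a C57BL/6J background (C57BL/6 in the labels). They ate standard chow, and cages stood next to each other, but which mice shared a cage is not given in the sources used here. Fmo5-/- mice lack a working Fmo5 gene in every cell of the body, so the liver was not the only organ affected. FMO5 is a flavin-containing monooxygenase that is abundant in hepatocytes. The comparison asks which of these genes differ in abundance between the livers of the 2 genotypes.

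Interferons are secreted proteins that cells release on sensing foreign nucleic acid or other microbial products. Type I interferons act through a receptor that activates STAT2, which binds DNA together with IRF9 at the interferon-stimulated response element (ISRE). Interferon gamma, made mainly by T and NK cells, acts through a receptor of its own, whose signal reaches the gamma-activated site (GAS). The induced genes encode antiviral enzymes, GTPases that attack vacuoles holding microbes, sensors of nucleic acid, and the transcription factors that amplify the response. In the liver, hepatocytes, Kupffer cells (the resident macrophages), endothelial cells and lymphocytes can all respond.

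Normalized counts of Fmo5 itself lay between 30240 and 39808 in WT and between 1071 and 1194 in Fmo5-/- livers, so each library matched its labelled genotype. Between 44886286 and 52338675 counts fell on genes in each library. A normalized count is a count divided by the scaled size of its library and multiplied by the mean of those sizes, and 0 counts allow up to 3 counts, or between 2.75 and 3.35 normalized counts. With 3 mice against 3, an exact permutation test cannot give a two-sided p below 0.1. Genotypes were therefore compared with edgeR's quasi-likelihood test across the 16734 genes that passed the filter on low counts. A gene was called where the Benjamini-Hochberg adjusted p over all those genes was under 0.05. The p-values rest on the spread between the mice sampled. Beside a log2 fold change, ± gives its standard error.

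Interferon-stimulated genes were more abundant in the Fmo5-/- livers. All 52 passed the filter, and 51 had a positive log2 fold change (Fmo5-/- over WT), against 50.8% of all tested genes. The exception was Oasl1, at -0.04. Their median log2 fold change was 0.76, with a range from -0.04 to 2.96, and the median of all tested genes was 0.0058. Of the 52, 14 were called higher by edgeR and 0 lower, where 0.675% of all tested genes were called higher. The 14 were Irf7, Usp18, Herc6, Ddx60, Zbp1, Ifit1, Oas1a, Trim30a, Gbp3, Gbp7, Ifi44, Rtp4, Apol9b and Ly6e, and their fold changes lay between 1.44 and 3.26. With the study's limit of a mean normalized count of 500 or more, 7 of 29 members were called higher (background 0.55%). With that limit set before the fit, 4 of the 29 were called, and Zbp1, Rtp4 and Apol9b lost their calls (edgeR adjusted p = 0.0615, 0.0601 and 0.0617). DESeq2 called 34 members higher and 0 lower (background 4.73%), which included all 14. At an unadjusted p under 0.05, edgeR gave 46 members higher and 0 lower, beside 11.6% of all tested genes higher.

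The raw spread gave a similar picture. In 41 of the 52 members all 3 Fmo5-/- mice lay above all 3 WT mice, where 13.9% of all tested genes did so, and in 0 members did they all lie below. The 11 members with overlap included Irf1, Oasl1, Trim25 and Ifih1. The number of calls changed when single mice were left out, and the direction of most members did not. EdgeR called 3 members without WT mouse 1, 4 without WT mouse 2, 6 without WT mouse 3, 1 without Fmo5-/- mouse 1 (Irf7), 11 without Fmo5-/- mouse 2 and 30 without Fmo5-/- mouse 3. The calls over all tested genes moved with them: 113 genes were called higher with all 6 mice, and 27, 37, 52, 16, 57 and 606 in these fits, in the same order. Of the 14 genes, Irf7 was called in all 6 of these fits, Usp18 and Ifi44 in 5, Ddx60, Gbp7 and Ly6e in 3, Zbp1, Gbp3, Rtp4 and Apol9b in 2, and Herc6, Ifit1, Oas1a and Trim30a in 1. Between 50 and 52 members had a positive log2 fold change in those 6 fits, and the median lay between 0.61 and 0.80. Reads that fit more than 1 gene were not counted, which bears on families of similar genes: 11 members shared over 10% of their 75-base windows with other genes. In Herc6, Gbp6, Gbp7, Ifi35 and Rtp4 over 10% of the exon bases also belonged to another gene, and the counts of both strands do not separate such pairs. With the reads of 1 strand, 15 members were called, 13 of them among the 14, and Herc6 lost its call. In whole liver, more cells of a type and more RNA per cell cannot be told apart.

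**Figure D1:**
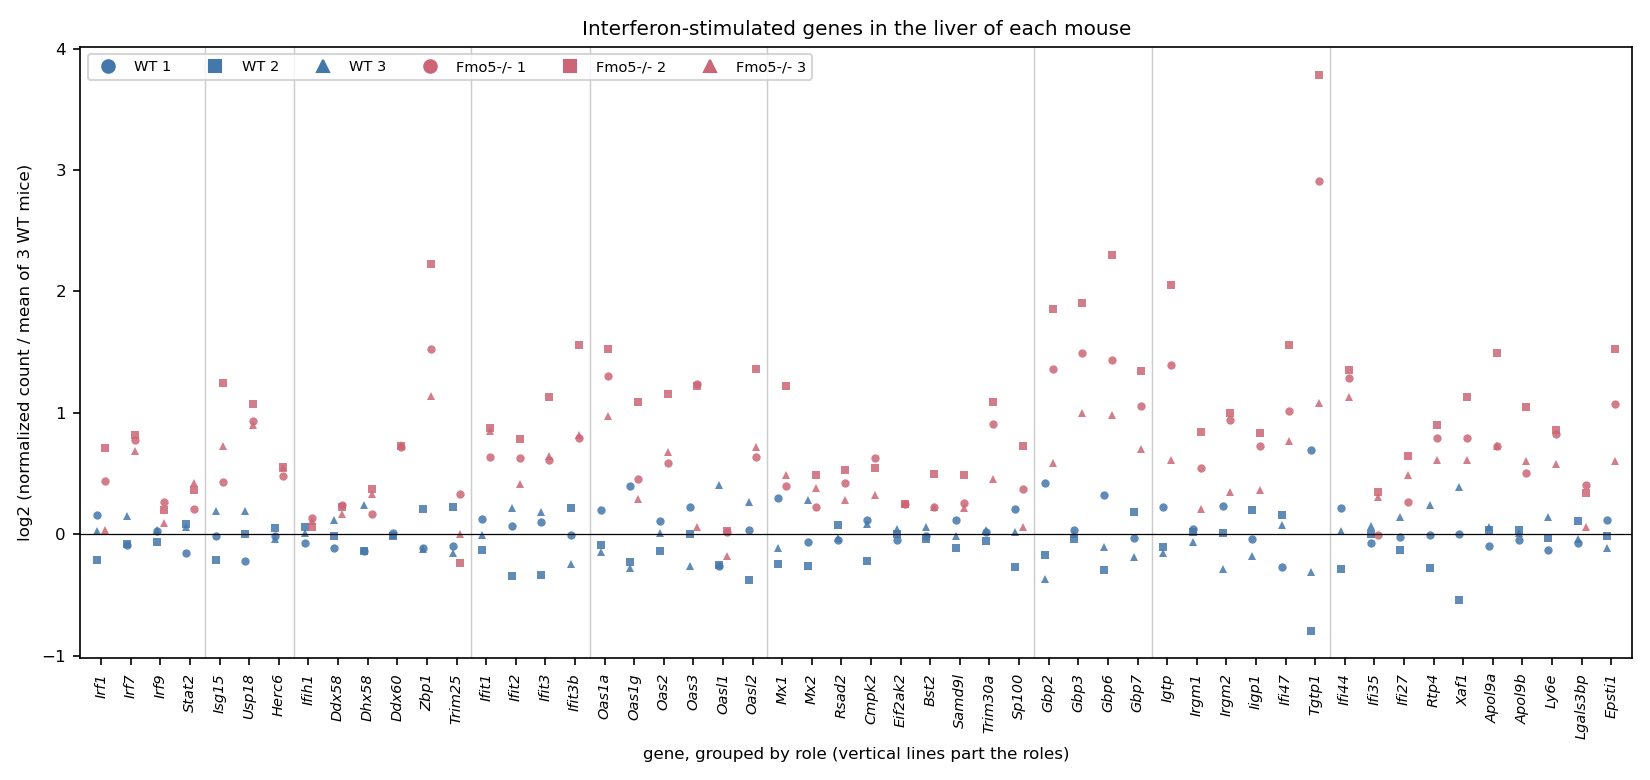
Log2 ratio of the normalized count in each mouse to the mean of the 3 WT mice, for all 52 genes grouped by role, with 1 point per mouse (blue WT, red Fmo5-/-; the shape gives the mouse number). Red points lie above blue ones without overlap in 41 genes, and Fmo5-/- mouse 2 (squares) is the highest of its genotype in 42.

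**Figure D2:**
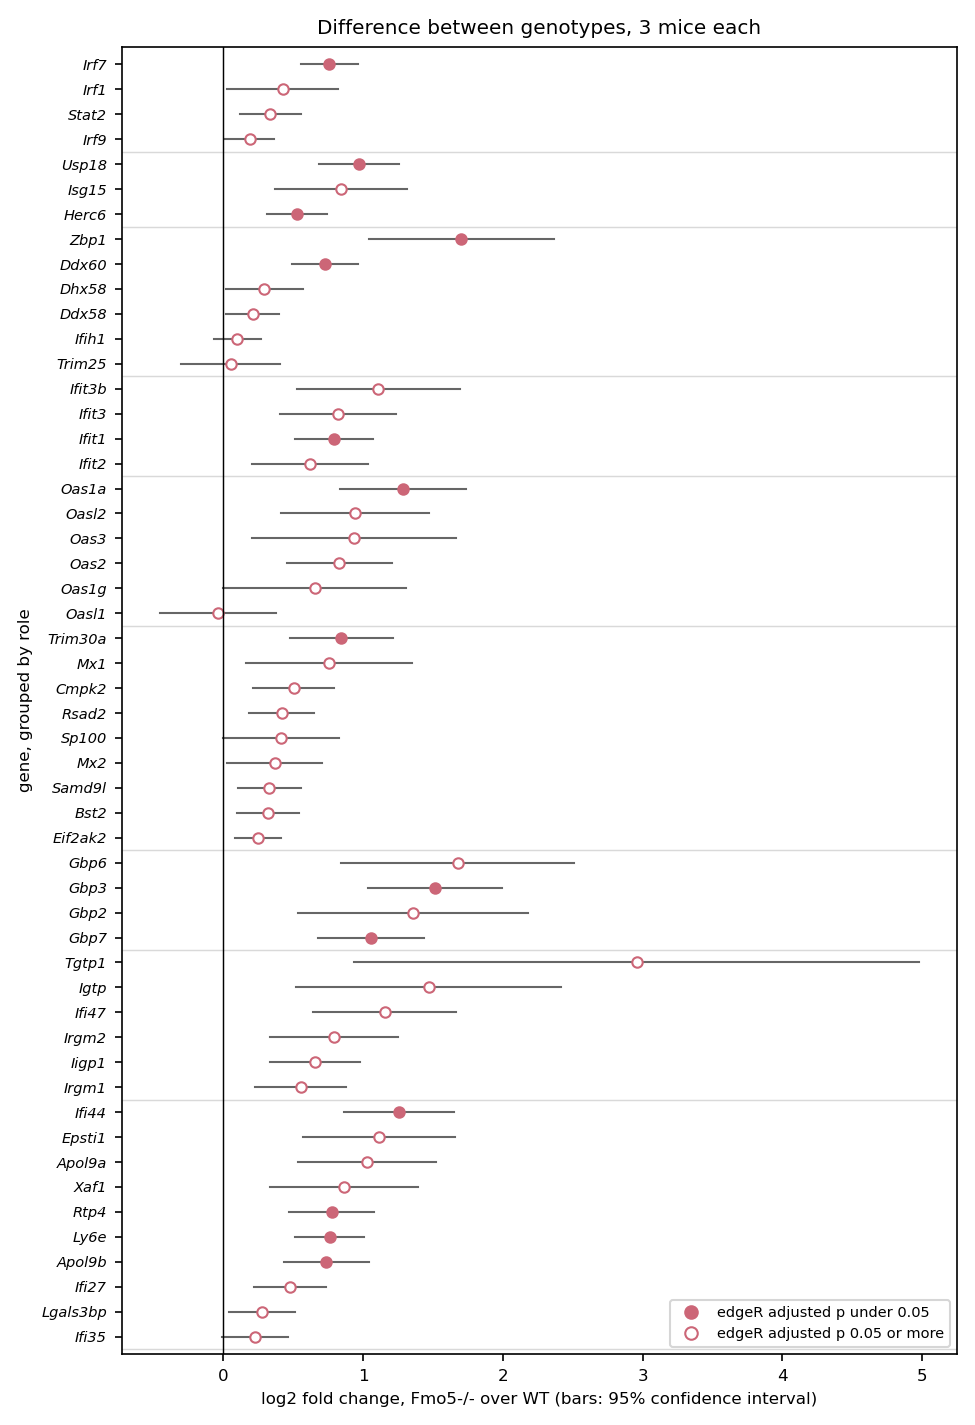
Log2 fold change of each gene with its 95% confidence interval from edgeR's quasi-likelihood fit (3 mice per genotype). Filled circles mark the 14 called genes. Intervals lie wholly above 0 in 46 of the 52 genes, and the widest interval belongs to Tgtp1.

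The stretches before the start sites of these genes were read for the DNA elements through which interferons act. RefSeq promoters (GRCm38.p6, from 250 bases before the start to 50 after it) were at hand for 41 members. Both strands were searched for the ISRE core, GAAANNGAAA, and for the GAS, TTCNNNGAA, which is its own reverse complement. Matches of the motifs may overlap. The ISRE core was found in 24 of the 41 members (58.5%), and in 3.99% of the promoters of 27025 genes. The GAS was found in 10 members (24.4%), and in 9.55% of all genes. Both were present in 7 members and neither in 14. The median log2 fold change was 0.80 in the 24 members with an ISRE core and 0.50 in the 17 without. Of these, 7 and 3 were called. The 3 called without the core were Irf7, Herc6 and Ifi44, which held no GAS either. For the GAS, the medians were 0.70 in 10 members and 0.74 in 31. No test was made of these differences, and a match does not show that a factor binds there.

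Stretches of 5 called members are shown first, because they hold the ISRE core close before the start of genes that differed. The called members Gbp3 and Apol9b also held the core close before the start. Their stretches overlap annotated exons and are not shown. They lie at chr8:61928034-61928077 on the plus strand (Ddx60), chr19:34640780-34640819 on the plus strand (Ifit1), chr5:120907526-120907565 on the minus strand (Oas1a), chr7:104465205-104465244 on the minus strand (Trim30a) and chr3:142530268-142530307 on the plus strand (Gbp7). Capitals mark the ISRE core on either strand.
Ddx60: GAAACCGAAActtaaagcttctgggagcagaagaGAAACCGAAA
Ifit1: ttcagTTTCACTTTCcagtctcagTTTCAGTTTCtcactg
Oas1a: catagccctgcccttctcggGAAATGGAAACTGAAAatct
Trim30a: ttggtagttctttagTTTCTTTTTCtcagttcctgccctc
Gbp7: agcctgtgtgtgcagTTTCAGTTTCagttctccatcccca

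Some genes of a family shared these stretches. The Oas1g promoter held the same 38 bases around its ISRE core as Oas1a. The 44 bases of Ifit3 (chr19:34583373-34583416, plus strand) and Ifit3b (chr19:34607769-34607812, plus strand) were identical. In 3 immunity-related GTPase genes a GAS stood 2 bases before an ISRE core, at chr11:58199502-58199541 on the plus strand (Igtp), chr11:58214893-58214932 on the plus strand (Irgm2) and chr11:48992304-48992343 on the minus strand (Tgtp1). Igtp and Irgm2 had 39 of 40 bases in common, and Irgm2 and Tgtp1 had 31 of 40. Such closeness was not limited to these GTPases: in Bst2 a GAS overlapped an ISRE core. Isg15 (chr4:156200866-156200905, minus strand) held 3 overlapping ISRE cores, and Irf1 (chr11:53769909-53769948, plus strand) held a GAS and no ISRE core. Capitals mark matches to either motif.
Ifit3: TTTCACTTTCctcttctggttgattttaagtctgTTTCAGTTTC
Igtp: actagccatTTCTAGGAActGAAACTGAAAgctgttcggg
Irgm2: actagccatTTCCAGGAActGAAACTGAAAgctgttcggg
Tgtp1: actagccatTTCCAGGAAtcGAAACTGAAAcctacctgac
Isg15: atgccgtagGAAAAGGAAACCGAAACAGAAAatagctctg
Irf1: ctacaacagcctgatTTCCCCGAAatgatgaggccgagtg

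**Figure D3:**
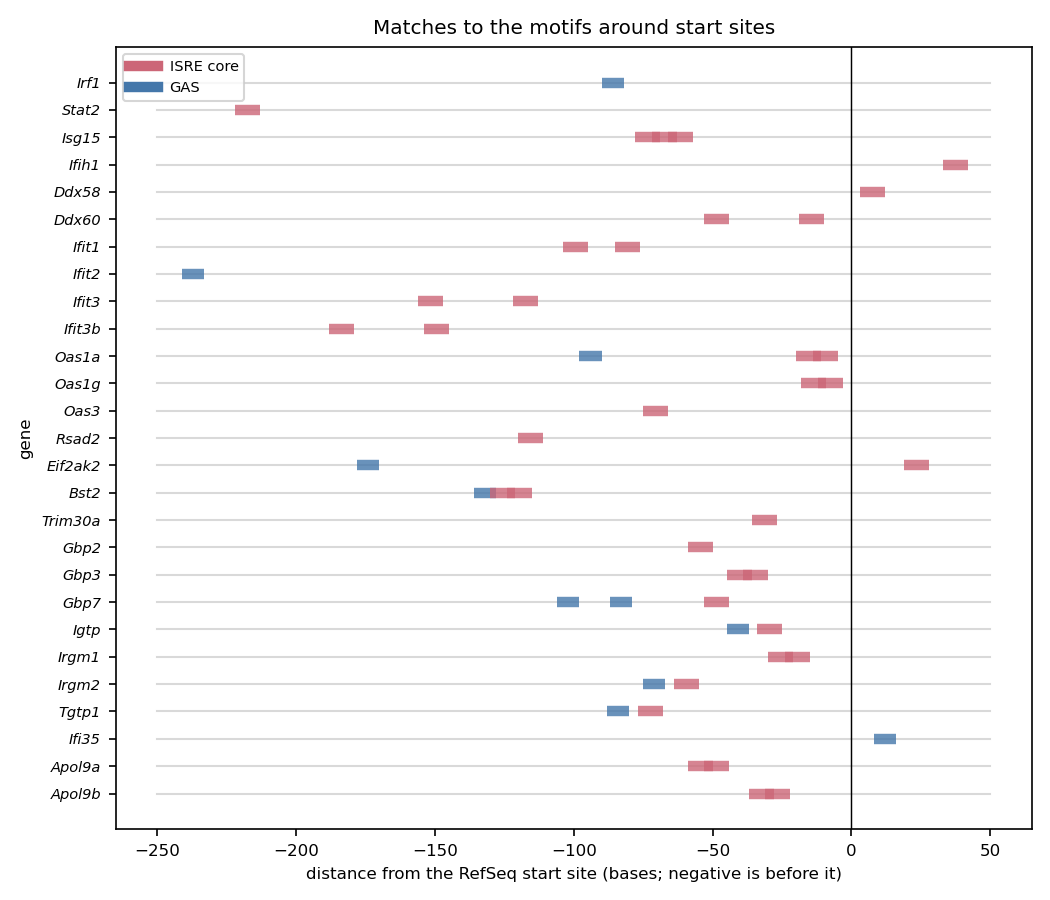
Positions of ISRE cores (red) and GAS (blue) from 250 bases before to 50 bases after the RefSeq start site, for the 27 genes with either motif. Matches before the start lie mostly within 150 bases of it, and Igtp, Irgm2 and Tgtp1 show the GAS and the ISRE core side by side. In Bst2 a GAS overlaps an ISRE core.

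Irf7 was the called member among the 4 transcription factors of the response, where 0.675% of all tested genes were called higher. IRF7 is the regulator that drives the production of type I interferons once it has itself been induced. Normalized counts of Irf7 (chromosome 7, 141262706 to 141266481 of mm10, minus strand) were 1216, 1227 and 1442 in WT livers, compared with 2213, 2280.0 and 2078 in Fmo5-/- livers. Every Fmo5-/- mouse lay well above every WT mouse, and the 3 Fmo5-/- mice were close together. The means were 1295 ± 127 and 2191 ± 103 (SD, n = 3 each), and the log2 fold change was 0.76 ± 0.091 (adjusted p = 0.00871, edgeR's quasi-likelihood test). This was the smallest adjusted p among the 52 genes, and over the 6 fits that left out 1 mouse its adjusted p ranged from 0.0061 to 0.0499.

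STAT2 and IRF9 are parts of the DNA-binding complex of type I interferon. Stat2 had 3726, 4404 and 4326 normalized counts in WT mice and 4798, 5355 and 5577 in Fmo5-/- mice. Irf9 had 1928, 1808 and 1946 against 2273, 2178 and 2017. Neither gene overlapped between the genotypes, but the differences were small, with log2 fold changes of 0.34 ± 0.097 and 0.19 ± 0.079, and edgeR's adjusted p were 0.0956 and 0.21. IRF1, which is induced directly by interferon gamma through its GAS, showed overlap. Irf1 had 2199.6, 1697 and 2005 normalized counts in WT mice and 2672, 3228 and 2013 in Fmo5-/- mice, with Fmo5-/- mouse 3 among the WT values (0.42 ± 0.17 on the log2 scale, edgeR adjusted p = 0.205).

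The ISG15 system attaches the ubiquitin-like protein ISG15 to other proteins. USP18 removes it and also restrains signalling at the interferon receptor, and HERC6 is the mouse ligase of the pathway. Usp18 (chromosome 6, 121245906 to 121270917, plus strand) had 251, 293 and 334 normalized counts in WT mice and 559.9, 615 and 546 in Fmo5-/- mice. The genotypes were far apart relative to the spread within each, and the log2 fold change was 0.97 ± 0.13 (edgeR adjusted p = 0.0133). Herc6 (chromosome 6, 57581000 to 57664632, plus strand) rose from 372, 388 and 364 to 522, 549 and 547, a smaller but even difference (0.52 ± 0.095 on the log2 scale, edgeR adjusted p = 0.043). Of its exon bases 13.7% also belong to Gm45193, and with the reads of 1 strand the edgeR adjusted p was 0.0559. Isg15 did not overlap between the genotypes and had a log2 fold change of 0.84 with an edgeR adjusted p of 0.0763.

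Among the 6 sensors and their helpers, Ddx60 and Zbp1 were called, where 0.675% of all tested genes were called higher. The best-known RNA sensors differed little. DDX60 is a helicase that supports RNA sensing, and ZBP1 binds Z-form nucleic acid and can trigger cell death. Ddx60 (chromosome 8, 61928087 to 62038244, plus strand) had 257, 253 and 255 normalized counts in WT mice and 421, 421 and 425 in Fmo5-/- mice. The SD within each genotype was under 3 normalized counts, and the log2 fold change was 0.73 ± 0.10 (edgeR adjusted p = 0.0184). Counting error alone gives a larger SD on average at these raw counts (227 to 459). The closeness of the Ddx60 values therefore does not measure the spread between mice. Zbp1 (chromosome 2, 173206612 to 173218923, minus strand) had 248, 309 and 246 against 769, 1257 and 589. Its difference was larger, 1.70 ± 0.28, but the Fmo5-/- mice varied widely, and its edgeR adjusted p was 0.0468 (0.0615 with the limit of 500 before the fit).

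Ddx58 (RIG-I), Ifih1 (MDA5) and Dhx58 (LGP2), which detect double-stranded RNA in the cytoplasm, had log2 fold changes of 0.21, 0.10 and 0.29, and edgeR called none. The 95% confidence interval for Ifih1 ran from -0.07 to 0.27. Trim25, a ubiquitin ligase of the RIG-I pathway and the most counted gene of this group, had 3591, 4478 and 3454 normalized counts in WT mice and 4839, 3259 and 3846 in Fmo5-/- mice. Its genotypes overlapped fully, with a log2 fold change of 0.05 and an interval from -0.30 to 0.41.

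The 4 IFIT genes encode proteins that bind viral RNA with foreign 5′ ends and lie within 100 kb of each other on chromosome 19. All 4 were higher in every Fmo5-/- mouse, beside 13.9% of all tested genes. DESeq2 called all 4 (4.73% of all tested genes were called higher), and edgeR called Ifit1 (0.675%). Ifit1 (34640871 to 34650009, plus strand), whose promoter is printed above, had 284, 238 and 259 normalized counts in WT mice and 405, 477 and 468 in Fmo5-/- mice (0.79 ± 0.12 on the log2 scale, edgeR adjusted p = 0.026). Ifit3 had 324, 239 and 343 against 462, 662 and 472, and Ifit3b 60.4, 70.3 and 51.1 against 105, 179 and 107. In both of these Fmo5-/- mouse 2 stood above the others, and edgeR's adjusted p were 0.0633 and 0.0678. Ifit3 shared 41.1% and Ifit3b 35.7% of their 75-base windows with other genes, mostly with each other, and reads from such windows were left out of the counts.

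The OAS family makes the second messenger that activates RNase L to cut RNA. Oas1a had the largest difference of its family. It had 85.8, 70.3 and 67.5 normalized counts in WT mice and 184, 215 and 146 in Fmo5-/- mice, without overlap (1.29 ± 0.20 on the log2 scale, edgeR adjusted p = 0.0256). Oas1a (chromosome 5, 120896256 to 120907521, minus strand) shared 47.6% of its windows, mostly with Oas1g. Oas2 and Oasl2 were higher in every Fmo5-/- mouse, with log2 fold changes of 0.83 and 0.94 (edgeR adjusted p = 0.0515 and 0.0755). Oas1g and Oas3 showed overlap. Oasl1, which restrains the translation of Irf7 mRNA and is the most counted member of the family, had 700.0, 702 and 1110.4 normalized counts in WT mice and 848, 855 and 740.2 in Fmo5-/- mice. Here WT mouse 3 was the highest of the 6, and without it the log2 fold change of Oasl1 was 0.22 and not -0.04.

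Of the 9 other antiviral effectors, Trim30a was called (0.675% of all tested genes were called higher). All 9 had positive log2 fold changes, between 0.25 and 0.84, beside 50.8% of all tested genes. Trim30a (chromosome 7, 104409025 to 104465193, minus strand), a ubiquitin ligase that dampens inflammatory signalling, had 262, 249 and 265 normalized counts in WT mice and 486, 551 and 354 in Fmo5-/- mice (0.84 ± 0.16 on the log2 scale, edgeR adjusted p = 0.0468). The most counted gene of the group was Bst2, which encodes tetherin, a protein that holds budding virus on the cell surface. Bst2 had 7199, 7065 and 7565 normalized counts in WT mice and 8489, 10264 and 8492 in Fmo5-/- mice. The genotypes did not overlap, but the log2 fold change was 0.32 and the edgeR adjusted p 0.111. The RNA-dependent kinase Eif2ak2 and the GTPases Mx1 and Mx2 had log2 fold changes of 0.25, 0.75 and 0.37 and were not called.

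The guanylate-binding proteins (GBP) had the largest median difference of the 9 role groups, with a median log2 fold change of 1.44. These GTPases coat and break vacuoles that hold microbes, and interferon gamma is their classic inducer. All 4 were higher without overlap in the Fmo5-/- livers, beside 13.9% of all tested genes. DESeq2 called all 4 (4.73% of all tested genes were called higher), and edgeR called Gbp3 and Gbp7 (0.675%). Gbp3 (chromosome 3, 142560026 to 142573209, plus strand) had 269, 254 and 263 normalized counts in WT mice and 738, 984 and 524 in Fmo5-/- mice (1.51 ± 0.21 on the log2 scale, edgeR adjusted p = 0.0208). Gbp7 (chromosome 3, 142530342 to 142550149, plus strand) had 556, 645 and 498 against 1176, 1436 and 921 (1.06 ± 0.17 on the log2 scale, edgeR adjusted p = 0.0316). The WT mice were close together in Gbp3, and the Fmo5-/- mice varied in both genes. Gbp6 had 174, 113 and 129 against 374, 680.1 and 274, a log2 fold change of 1.68 with an edgeR adjusted p of 0.0678, and 67.3% of its windows were shared with other genes.

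Gbp2, Gbp3 and Gbp7 lie side by side on chromosome 3, the chromosome of Fmo5, at 44.9 to 45.0 Mb from it, and Ifi44 lies 54.1 Mb from it. Of these 4 members 3 were called, beside 0.675% of all tested genes called higher. The other 48 members, on other chromosomes or without a position here, gave 11 calls. Among these 48, 37 genes did not overlap (13.9% of all tested genes), and the median log2 fold change was 0.73.

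The 6 immunity-related GTPases (IRG) attack the same vacuoles as the GBPs. All 6 were higher in every Fmo5-/- mouse, beside 13.9% of all tested genes. DESeq2 called all 6 (4.73% of all tested genes were called higher). EdgeR called 0 of them (0.675%), with adjusted p from 0.0554 to 0.123. At an unadjusted p under 0.05, edgeR gave all 6, beside 11.6% of all tested genes higher. Iigp1 was the most counted gene of the 52, with 13449, 15879 and 12230.5 normalized counts in WT mice and 22968, 24692 and 17814 in Fmo5-/- mice (0.66 ± 0.14 on the log2 scale, edgeR adjusted p = 0.0585). Tgtp1 had the largest log2 fold change of all 52, 2.96. Its normalized counts were 72.0, 25.7 and 35.8 in WT mice and 333, 613 and 94.2 in Fmo5-/- mice. The Fmo5-/- mice differed 6.51-fold between mouse 2 and mouse 3, the interval ran from 0.94 to 4.98, and the edgeR adjusted p was 0.123. Tgtp1 shared 77.2% of its windows, mostly with its near-copy Tgtp2. Igtp, Ifi47 and Irgm2 had log2 fold changes of 1.47, 1.15 and 0.79, and Irgm1 of 0.55. The gene models of Igtp and Irgm2 overlap.

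The remaining 10 genes gave 4 calls, beside 0.675% of all tested genes called higher. Ly6e, a surface protein that affects the entry of several viruses, was abundant. It rose from 8066, 8615 and 9752 normalized counts in WT mice to 15625, 15966 and 13199.7 in Fmo5-/- mice. The lowest Fmo5-/- mouse stood far above the highest WT mouse (0.76 ± 0.11 on the log2 scale, edgeR adjusted p = 0.0191). Ly6e lies on chromosome 15, 74955051 to 74959905, plus strand. Ifi44 (chromosome 3, 151730922 to 151749960, minus strand), a cytoplasmic antiviral protein, had 109, 77.0 and 96.1 normalized counts against 229, 240.5 and 206. Its log2 fold change was 1.26 ± 0.17 (edgeR adjusted p = 0.0155).

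Rtp4 (chromosome 16, 23520291 to 23614222, plus strand), a receptor-trafficking protein that also binds viral RNA, had 747, 619 and 885 normalized counts in WT mice and 1304, 1403 and 1149 in Fmo5-/- mice (0.78 ± 0.13 on the log2 scale, edgeR adjusted p = 0.0378). Apol9b (chromosome 15, 77729039 to 77736382, plus strand), an apolipoprotein L, had 3016, 3189 and 3136 against 4408, 6423 and 4736 (0.74 ± 0.13 on the log2 scale, edgeR adjusted p = 0.0447). The genotypes did not overlap in either gene, and neither was called with the limit of 500 before the fit. Apol9b shared 43.3% of its windows, mostly with Apol9a. The other 6 genes, Ifi27, Ifi35, Xaf1, Apol9a, Lgals3bp and Epsti1, had log2 fold changes between 0.23 and 1.12.

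Levels per length of transcript were compared as RPKM, computed here for the 51 members with a position. Of these, Bst2 was the highest, at 165 RPKM in WT mice and 206 in Fmo5-/- mice. Ifi27 followed at 65.6 and 91.1, Ly6e at 47.7 and 80.8 and Apol9b at 35.0 and 58.4. These values divide by the whole exon length although reads from shared windows were not counted, so the levels of Apol9b and other members with many shared windows are understated and their place in the order is uncertain. Iigp1, the most counted member, has no RPKM here. The lowest was Oas3, at 0.142 and 0.272 RPKM. In WT mice 13 members lay under 1 RPKM and 11 above 10 RPKM, so the called genes ranged from rare (Ifi44, 0.314 RPKM in WT mice) to abundant transcripts.

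**Figure D4:**
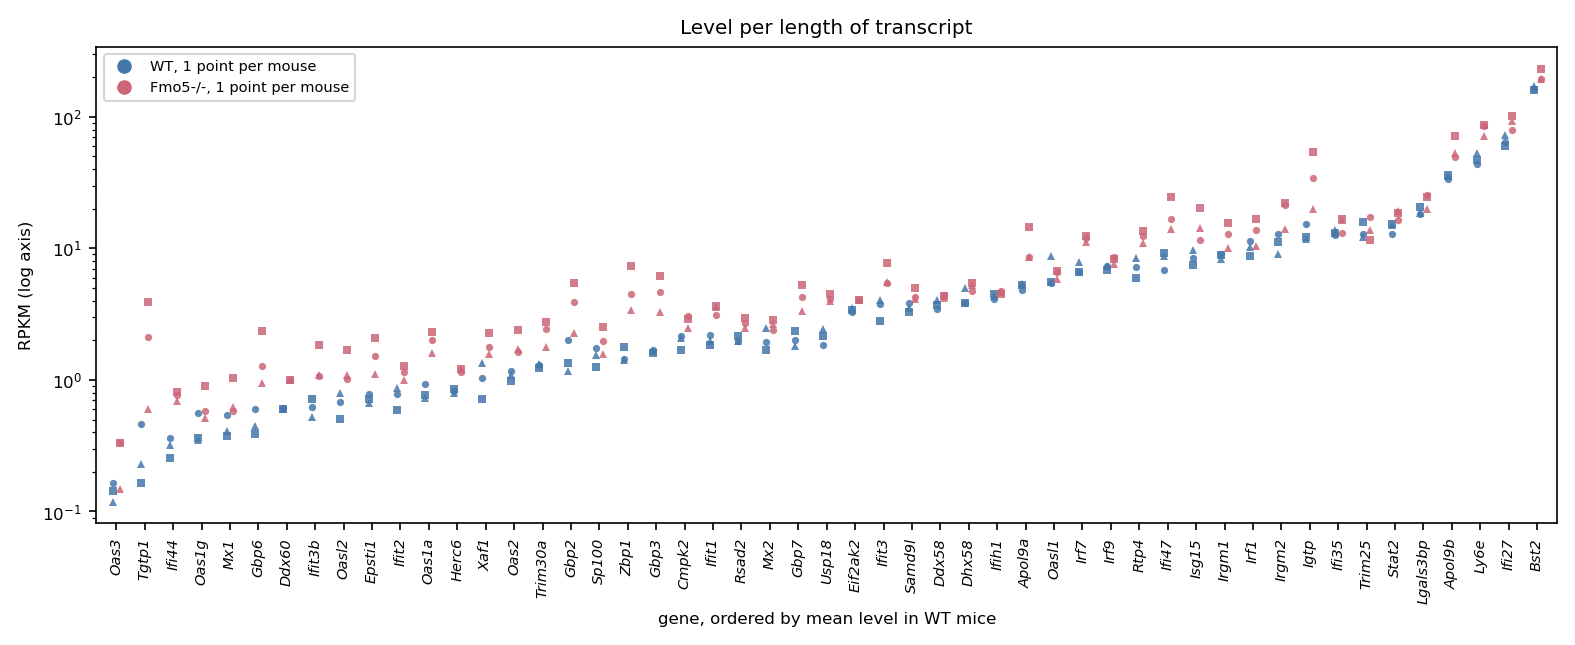
Level of each gene in each mouse in RPKM on a log axis, ordered by the mean of the WT mice (blue WT, red Fmo5-/-). WT means run from 0.142 RPKM (Oas3) to 165 RPKM (Bst2), where the red points lie above the blue ones, while they overlap for Oas3.

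The Fmo5-/- mice did not show the same degree of difference. Mouse 2 was the highest of the 3 Fmo5-/- mice in 42 of the 52 members, beside 35.6% of all tested genes, and mouse 3 was the lowest in 33 members, beside 32.8%. Both held in 27 members (51.9%), beside 18.6% of all tested genes. The median log2 ratio of the members to the WT mean was 0.63 in mouse 1, 0.89 in mouse 2 and 0.52 in mouse 3, and in each WT mouse it was between -0.06 and 0.02. The order was complete in the 4 GBP and 6 IRG genes, where mouse 2 was the highest and mouse 3 the lowest in all 10. The GBP medians were 1.39, 1.88 and 0.84 in mice 1, 2 and 3, and the IRG medians were 0.98, 1.28 and 0.49. The median of the sensors was even across the 3 mice, at 0.29, 0.30 and 0.25, although Zbp1 and Trim25 varied between them. The ratio of mouse 2 to mouse 3 was 1.5 or more in 20 members and between 0.9 and 1.1 in 12 (among them Irf7, Herc6, Ddx60, Ifit1 and Eif2ak2). The order of the mice was not tested, since the 3 values of a genotype share their libraries across genes.

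Markers of several immune cells were also higher, and least so in Fmo5-/- mouse 3. The 10 Kupffer cell markers had positive log2 fold changes (median 1.12). EdgeR called 1 of the 10 (Clec4f) and DESeq2 9, and 9 did not overlap, beside 0.675%, 4.73% and 13.9% of all tested genes. Their summed normalized counts were 13195 to 15594 in WT mice and 20566 to 37551 in Fmo5-/- mice, and all 10 were lowest in mouse 3 among the Fmo5-/- mice. The 8 markers of T and NK cells also had positive log2 fold changes (median 1.75) and summed to 116 to 235 and 313 to 1282, with mouse 2 the highest. EdgeR called 0 of the 8 and DESeq2 4, and at an unadjusted p under 0.05 edgeR gave 7, beside 11.6% of all tested genes. The 6 markers of monocytes and neutrophils summed to 2367 to 2393 and 2434 to 5200, mostly through Lyz2, which overlapped between the genotypes. EdgeR called 0 of these 6, with 4 at an unadjusted p under 0.05, DESeq2 called 2, and 3 did not overlap.

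The other lists moved less. The ratio of the mean sums, Fmo5-/- over WT, was 1.15 for plasmacytoid dendritic cells (4 genes), 1.27 for B cells (4 genes), 1.03 for sinusoidal endothelium (6 genes), 1.07 for stellate cells (5 genes), 0.860 for cholangiocytes (4 genes) and 0.969 for hepatocytes (5 genes). Tcf4 (mean normalized count 1014) carried most of the plasmacytoid dendritic cell sum, and Alb (4778880) most of the hepatocyte sum. Siglech and Ccr9 had log2 fold changes of -0.12 and 0.38. In the sinusoidal endothelium list, Stab2 was higher without overlap (log2 fold change 0.23) and Oit3 lower without overlap (-0.29). Beside these, 13.9% of all tested genes were higher without overlap and 13.5% lower. No marker had a count of 0 in any library. The part of these cell types in the differences of the interferon-stimulated genes was not tested.

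**Figure D5:**
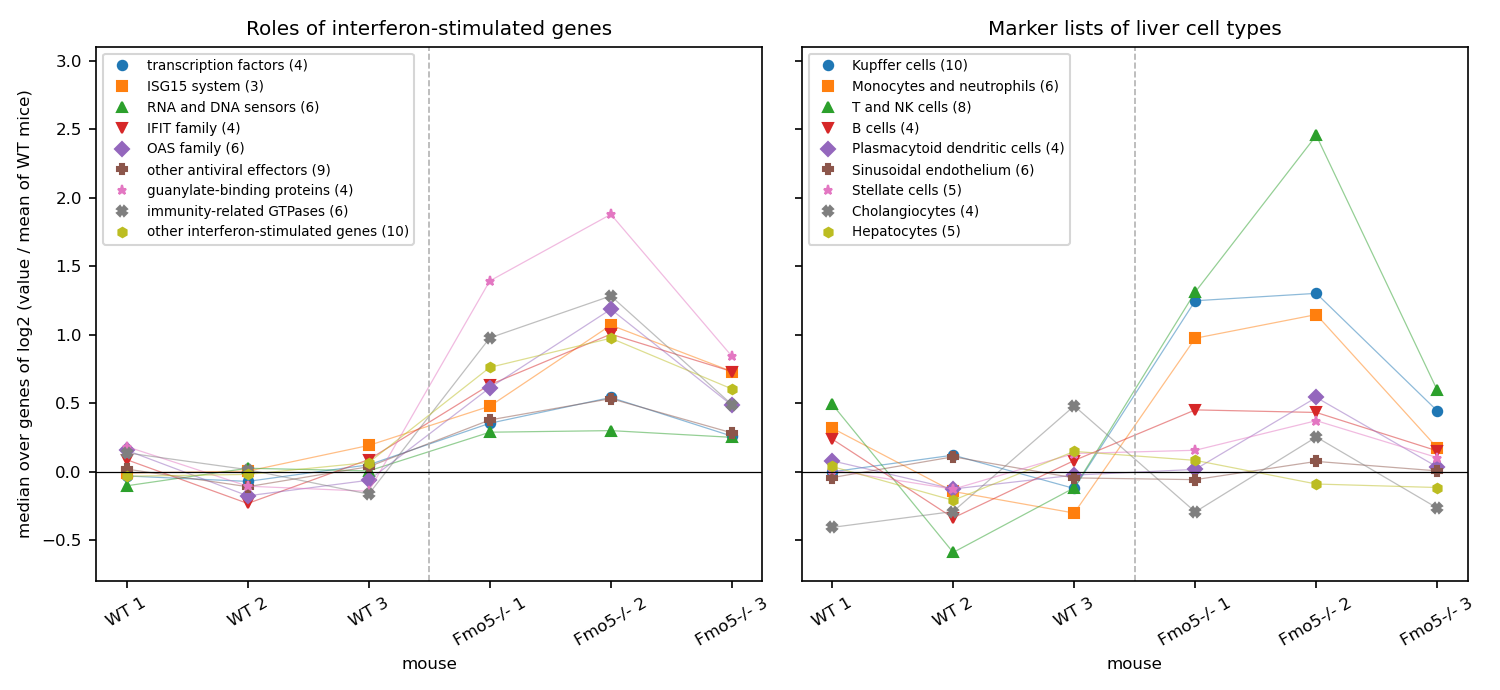
Median over the genes of a group of the log2 ratio to the WT mean in each mouse, for the 9 roles of interferon-stimulated genes (left) and for the marker lists of 9 liver cell types (right), with the number of genes in brackets. On the left, Fmo5-/- mouse 2 is the highest and mouse 3 the lowest of that genotype in every role except the ISG15 system and the IFIT family. On the right, the same order holds for Kupffer cell, T and NK cell, monocyte and neutrophil, and stellate cell markers. The Kupffer cell medians of mice 1 and 2 are close (1.25 and 1.30).

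Genes of the interferon pathway outside the 52 were described beside them, from a list of 44 genes of which 34 were tested. Of the 34, 28 had a positive log2 fold change (50.8% of all tested genes), with a median of 0.25. In 13 the Fmo5-/- mice all lay above the WT mice (13.9% of all tested genes). EdgeR called 1 higher (0.675%) and DESeq2 8 (4.73%). The called gene was Irf5, a transcription factor of macrophages and other immune cells downstream of Toll-like receptors, which had 646, 818 and 728 normalized counts in WT mice and 1371, 1094 and 1138 in Fmo5-/- mice (0.72 ± 0.12 on the log2 scale, edgeR adjusted p = 0.0312). The number of calls was 0 without WT mouse 1, WT mouse 3 or Fmo5-/- mouse 1, and 5 without Fmo5-/- mouse 3.

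The 9 interferon genes on the list were too low to be tested. No count was found for 7 of them in any library, and Ifng had 1 count over the WT mice and 9 over the Fmo5-/- mice, 7 of them in Fmo5-/- mouse 2. The 6 receptor chains had log2 fold changes between 0.04 and 0.48, and edgeR and DESeq2 each called 0 of them. At an unadjusted p under 0.05, edgeR gave 2, beside 11.6% of all tested genes higher. Of the 8 tested genes listed here as inhibitors and restrainers, DESeq2 called Socs1, Nlrc5, Adar and Samhd1 higher (4.73% of all tested genes). EdgeR called 0 of the 8 (0.675%) and gave 4 at an unadjusted p under 0.05, beside 11.6% of all tested genes higher. Whether these genes restrained the response in these livers was not tested.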

How the data were processed

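RNA-seq was carried out on 1 liver library per mouse (75-base single reads), 3 WT and 3 Fmo5-/-. The authors mapped reads to mm10 with STAR 2.6.0c and deposited the raw counts of both strands and of each strand per gene; the annotation release is not given in the sources used here. They also deposited a signal table of counts divided by 1 DESeq2 1.22.2 size factor per library, which was checked to be proportional to the counts of both strands. That table holds the authors' own fold changes, standard errors, Wald statistics and p-values, which were not used. STAR leaves out reads that map to several places or to more than 1 gene.

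Counts of both strands were filtered with filterByExpr (minimum count 10), scaled by TMM and compared in R 4.3.3 with the robust quasi-likelihood test of edgeR 4.0.16, with no covariate, adjusted over 16734 genes. Samples were grouped by their labelled genotype. Alternatives were DESeq2 1.42.0, RLE factors, TMM without the 20 most abundant genes, no filter, a mean of 500 before the fit, 1 strand, and each library left out. The edgeR and DESeq2 fits were tested on simulated counts. Positions and lengths came from GENCODE vM21 (53229 of 54446 identifiers), promoters from RefSeq.

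The members and lists were chosen with earlier results of these data known. Values in every mouse are given for the 4 transcription factors, the called members, the 10 smallest adjusted p, and in each role the most counted member and the one with the largest log2 fold change. Genes outside the members are named where called; Isg15 and others beyond this rule were chosen after their values were seen. The values of 1 gene are not reported here. The limit that a count of 0 allows covers counting error only, and the 95% intervals come from edgeR's fit and include the spread between mice.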

Additional observations from a re-analysis of the deposited data

How the results depend on the processing

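The direction of the members as a group was kept in every alternative, and the number of calls was not. DESeq2 called 34 members and edgeR without a filter 38, edgeR after a limit of 500 on the mean called 4 of the 29 genes left, and the fits without 1 mouse called between 1 and 30. Over all tested genes, the calls higher were 113 in the fit reported, 740 with DESeq2, 1093 without a filter, 30 with the limit of 500 and between 16 and 606 without 1 mouse. RLE factors gave 14 calls, and TMM without the 20 most abundant genes and the reads of 1 strand gave 15 each. The 29 genes kept by the limit of 500 had a median log2 fold change of 0.49, beside 0.00165 over all genes of that fit. The limit leaves out the 23 rarer members. Pathway genes outside the members gave 8 calls with DESeq2, 9 without a filter, 2 with the limit of 500, 2 with the reads of 1 strand, and between 0 and 5 without 1 mouse. Signs turned in 2 genes, whose log2 fold changes ranged without 1 mouse from -0.15 to 0.22 (Oasl1) and from -0.11 to 0.18 (Trim25). Oasl1 became positive with the limit of 500 (0.020), without WT mouse 3 (0.22) and without Fmo5-/- mouse 3 (0.02). Trim25 became negative without WT mouse 3 (-0.01) and without Fmo5-/- mouse 1 (-0.11). The cause of these changes was not tested. No paired analysis was possible because the labels give the mice no shared numbers. The rarest members, such as Oas3 and Oas1g, had under 120 normalized counts in any mouse, and the part of depth in their results was not tested.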
